A study of Mus musculus with 12 samples.

Results

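The circadian clock genes of the mouse retina were taken as 10 genes: the activators Arntl and Clock, the repressors Per1, Per2, Per3, Cry1 and Cry2, the nuclear receptors Nr1d1 and Nr1d2, and the output factor Dbp. They were chosen by exact match to the gene name and make up 10 of the 55487 genes in the gene table. Each has a single entry there.

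In the core loop, the ARNTL and CLOCK proteins pair and switch on the Per and Cry genes, whose products return to repress that pair. A second loop runs through Nr1d1 and Nr1d2, which repress Arntl, while retinoic acid related orphan receptors activate it. In the retina this clock sets daily rhythms of dopamine and melatonin signalling, gap junction coupling and photoreceptor function, and light and dopamine reset it.

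The data were RNA-seq of poly(A) RNA from adult mouse retina, in 12 libraries that form 6 groups of 2. Wild type (WT) C57BL/6J retinas, shPax6 retinas and JNK3 KO retinas each received 1 µL of PBS or of 40 mM NMDA, which is 40 nmol, into the vitreous. NMDA is a glutamate receptor agonist that kills retinal ganglion cells by excitotoxicity, and the study compared its effect with less PAX6 or without the stress kinase JNK3. Each library pooled more than 3 retinas.

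The shPax6 retinas were C57BL/6J retinas infected with 2 µL of the AAV2.7m8 vector pU6-shPax6-GFP, in which a U6 promoter drives a hairpin RNA against Pax6. The sources name both an intravitreal and a subretinal route for the vector. No library infected with the scrambled hairpin was analysed here, so infection and knockdown cannot be told apart. JNK3 KO retinas came from the Jnk3-/- germline strain. Mice were housed in a light-dark cycle, but the clock hour at which retinas were collected is not given in the sources used here. A difference in collection hour and a difference in treatment or genotype therefore cannot be told apart for genes that cycle.

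Levels are FPKM, fragments scaled to transcript length and to the mapped fragments of the library. They do not hold the number of reads behind a value, so the counting error is unknown and precision was judged from the 2 libraries of each group. These libraries are pools of retinas, so p-values measure the spread between the libraries. In bulk tissue, fewer cells of a type and less RNA per cell cannot be told apart.

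The targeted genes came first as a check of the labels. Pax6 was at 173 and 177 FPKM in WT PBS, 94.6 and 92.8 in shPax6 PBS, and 67.5 and 58.7 in shPax6 NMDA. In WT NMDA it was at 55.4 and 53.8 FPKM, below the shPax6 PBS libraries. JNK3 KO retinas held 187 and 191 FPKM of Pax6 under PBS and 129 and 138 under NMDA. Mapk10, which encodes JNK3, had levels of 42.8 and 50.7 FPKM in WT PBS, against 9.47 and 8.75 in JNK3 KO PBS. It was also low in WT NMDA, at 8.98 and 6.00 FPKM, and in JNK3 KO NMDA, at 6.65 and 13.8. In the shPax6 retinas Mapk10 was at 20.9 and 21.3 FPKM under PBS and 16.2 and 8.85 under NMDA. Both targeted genes were thus lower than in WT PBS where the labels place them, and both were also low in WT NMDA, which carries neither change.

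The 2 WT NMDA libraries stood apart from the other 10 before any clock gene was considered. Their FPKM summed to 805627 and 820180, against 541210 to 576922 in the others. Across genes, the deviation of a library from the mean of all libraries followed transcript length with a Spearman correlation of -0.492 and -0.528 in WT NMDA and of 0.047 to 0.408 elsewhere. In WT NMDA against WT PBS, the median log2 fold change was 1.03 over 2948 genes with transcripts under 1000 bases and 0.53 over 4524 genes of 1000 to 2000 bases. It was -0.32 over 5976 genes of 2000 to 4000 bases and -1.17 over 3003 genes above 4000 bases. The medians of short transcripts were therefore higher and those of long transcripts lower in this group. The clock genes differ in length, from 1522 bases for Dbp to 8326 for Clock, weighted by transcript abundance. Fold changes of the 10 clock genes that use WT NMDA are given as deposited and again after a correction in which every library was freed of its trend on length. Results below for transcripts, gene correlations and other gene lists are as deposited only.

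Markers of other cells also moved with WT NMDA, where 59.8% of all genes tested were called, 26.0% higher and 33.8% lower. A list is said to be led by the gene with the highest mean over the 12 libraries. The 6 infiltrating leukocyte markers, led by S100a9, summed to 2086 and 2125 FPKM there against 298 and 329 in WT PBS, and 4 of 6 were called higher and 2 lower. The 3 erythrocyte markers, led by Hbb-bs, summed to 422 and 428 FPKM against 64.5 and 73.15, and 3 of 3 were higher. The 5 amacrine markers, led by Gad1, summed to 92.7 and 85.9 FPKM against 229.9 and 224, and 5 of 5 were lower. Of the 7 retinal ganglion cell markers, led by Thy1, 6 were lower, with sums of 286 and 308 FPKM against 484 and 501. Thy1 itself was at 136 and 154 FPKM in WT NMDA and 142 and 145 in WT PBS. The part of these cells in the clock gene results was not tested.

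A further library fact concerns the shPax6 NMDA group. Xist, the RNA made from the inactive X chromosome, was at 138 and 126 FPKM in its 2 libraries and at 0.22 or less in the other 10. Eif2s3y, on the Y chromosome, was at 17.7 and 19.9 FPKM there and at 37.4 and 47.8 in shPax6 PBS. The labels call purchased control mice male and give no sex for this group. Treatment and sex cannot be told apart in the shPax6 comparison.

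Arntl, whose protein is the obligate partner in the activating pair (chr7:113207465-113314126, plus strand, GRCm38.p6), was at 33.6 and 32.1 FPKM in WT PBS and 23.2 and 20.8 in WT NMDA. In shPax6 retinas it was at 40.1 and 45.0 FPKM under PBS and 35.9 and 40.7 under NMDA. The JNK3 KO values were 38.5 and 39.4 FPKM under PBS and 37.2 and 32.8 under NMDA. The WT NMDA libraries were the lowest of the 12 and overlapped no other group, and shPax6 PBS was the highest group. The 4 groups between ran from JNK3 KO PBS through shPax6 NMDA and JNK3 KO NMDA to WT PBS, each overlapping the next.

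Clock, the DNA-binding partner of ARNTL (chr5:76209868-76304792, minus strand), was at 18.3 and 17.1 FPKM in WT PBS and 3.49 and 3.94 in WT NMDA. It was at 19.0 and 20.4 FPKM in shPax6 PBS and 17.0 and 13.8 in shPax6 NMDA. In JNK3 KO retinas it was at 12.7 and 14.4 FPKM under PBS and 20.7 and 18.9 under NMDA. Clock had the widest range of the 10 genes, with a highest value 5.94 times its lowest over the 12 libraries and 1.63 times without the WT NMDA group. WT NMDA was far below every other group, and the next group up, JNK3 KO PBS, overlapped shPax6 NMDA. The highest group, JNK3 KO NMDA, overlapped shPax6 PBS.

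**Figure D1:**
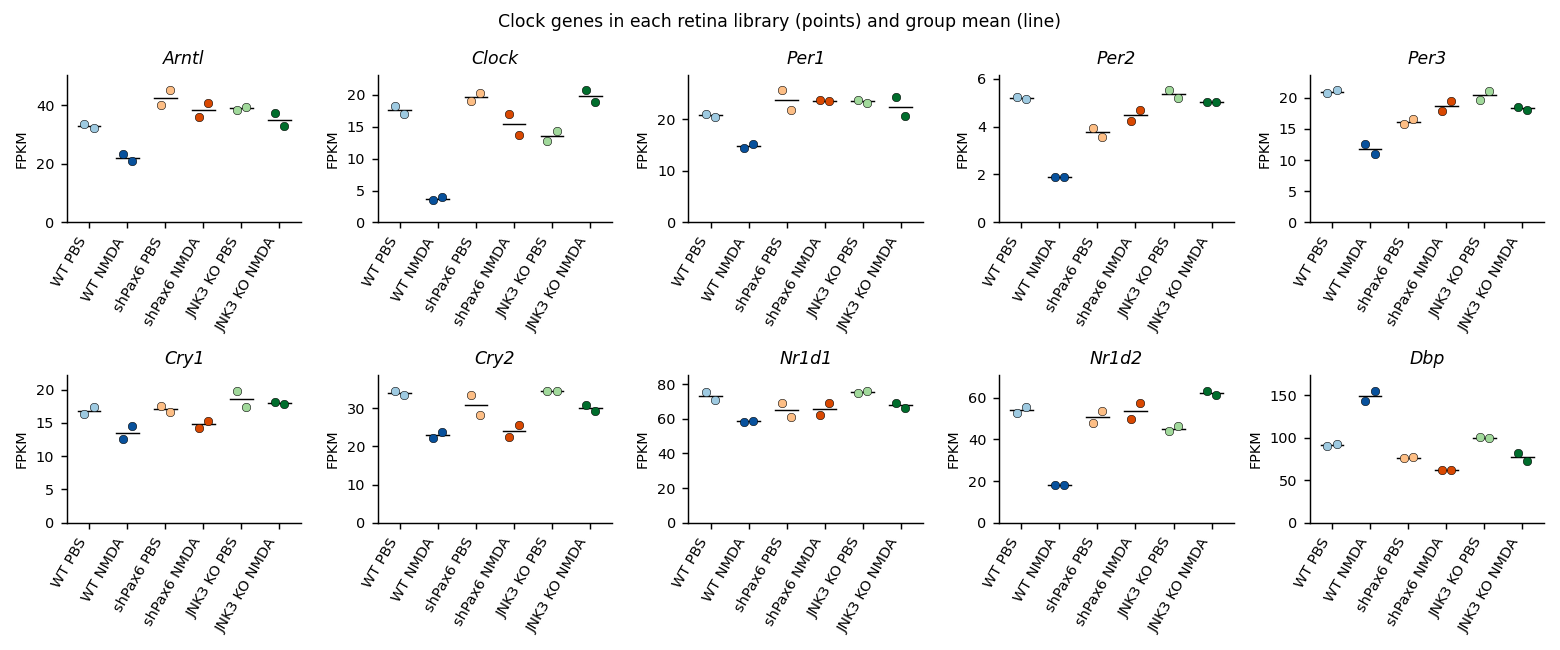
FPKM of the 10 clock genes in each of the 12 retina libraries; each panel is 1 gene, points are libraries, lines are means of 2 libraries, and each axis starts at 0. The WT NMDA libraries are the lowest for Arntl, Clock, Per1, Per2, Per3, Nr1d1 and Nr1d2 and the highest for Dbp.

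The Period genes encode repressors that accumulate and are degraded each day, and Per1 and Per2 are induced by light in the master clock. Promoter sequences of RefSeq (GRCm38.p6), running from 250 bases before to 50 after an annotated start, were found for 9 of the 10 genes, in 13 windows; Per2 was not among them. They were searched on both strands for the E-box CACGTG bound by the activating pair, the D-box TTATGTAA or TTACGTAA bound by DBP and its relatives, the cAMP response element TGACGTCA, and the ROR element by 4 spellings (AAAGGTCA, ATAGGTCA, TAAGGTCA, TTAGGTCA). The 3 windows that held a match to these spellings are shown, with the match in capitals. They are an E-box in Per1 (chr11:69098699-69098998, plus strand), an E-box in Cry1 (chr10:85185005-85185304, minus strand) and a pair of D-boxes in Per3 (chr4:151044616-151044915, minus strand).
Per1: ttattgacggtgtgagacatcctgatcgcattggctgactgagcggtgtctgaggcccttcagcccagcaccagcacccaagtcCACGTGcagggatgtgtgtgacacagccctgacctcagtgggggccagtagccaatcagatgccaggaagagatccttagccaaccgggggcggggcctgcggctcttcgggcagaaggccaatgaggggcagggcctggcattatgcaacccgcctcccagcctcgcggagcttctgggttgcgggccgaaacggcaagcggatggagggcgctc
Cry1: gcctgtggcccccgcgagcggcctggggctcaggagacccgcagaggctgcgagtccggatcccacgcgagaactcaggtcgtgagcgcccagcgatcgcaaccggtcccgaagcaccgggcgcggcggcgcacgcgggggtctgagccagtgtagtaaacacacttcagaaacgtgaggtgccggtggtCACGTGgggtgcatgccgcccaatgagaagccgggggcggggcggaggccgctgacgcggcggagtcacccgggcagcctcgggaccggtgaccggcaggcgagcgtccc
Per3: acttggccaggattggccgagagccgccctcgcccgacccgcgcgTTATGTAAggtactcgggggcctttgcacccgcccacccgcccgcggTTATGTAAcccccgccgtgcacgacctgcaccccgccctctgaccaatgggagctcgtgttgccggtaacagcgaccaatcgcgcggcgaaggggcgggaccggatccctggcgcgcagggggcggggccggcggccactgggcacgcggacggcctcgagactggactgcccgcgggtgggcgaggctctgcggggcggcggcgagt
The E-box lay at -166 from the start in Per1 and at -60 in Cry1, and the Per3 D-boxes lay at -205 and -158. Of all 32851 windows in the table, 7.15% held the E-box, 1.06% the D-box, 1.79% the cAMP response element and 3.38% the ROR element. These matches are letters in a window and do not show binding. The 4 ROR spellings leave out other flanks of AGGTCA, so a window without a match to them may still hold a ROR element. An Arntl window (chr7:113207261-113207560, plus strand) held AAAGTAGGTCA, which the spellings do not cover.

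Per1 (chr11:69095217-69109960, plus strand) was at 21.0 and 20.5 FPKM in WT PBS and 14.3 and 15.1 in WT NMDA. It was at 25.5 and 21.7 FPKM in shPax6 PBS, 23.7 and 23.4 in shPax6 NMDA, 23.7 and 23.1 in JNK3 KO PBS, and 24.2 and 20.6 in JNK3 KO NMDA. Only WT NMDA was separate; every other neighbouring pair in the order of the groups overlapped. Per2 (chr1:91415982-91459324, minus strand) was the least abundant of the 10, at 5.22 and 5.14 FPKM in WT PBS and 1.89 and 1.90 in WT NMDA. Its other values were 3.94 and 3.58 FPKM in shPax6 PBS, 4.23 and 4.70 in shPax6 NMDA, 5.51 and 5.20 in JNK3 KO PBS, and 5.03 and 5.02 in JNK3 KO NMDA. JNK3 KO PBS and WT PBS overlapped at the top, and below them each group lay apart from the next. Per3 (chr4:151003652-151044665, minus strand), which modulates the loop more weakly, was at 20.7 and 21.2 FPKM in WT PBS and 12.6 and 11.1 in WT NMDA. It was at 15.8 and 16.5 FPKM in shPax6 PBS, 17.9 and 19.5 in shPax6 NMDA, 19.7 and 21.1 in JNK3 KO PBS, and 18.5 and 18.1 in JNK3 KO NMDA. The order fell from WT PBS to WT NMDA, with shPax6 PBS second from the bottom and apart from both neighbours.

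The cryptochromes bind and silence the activating pair directly. Cry1 (chr10:85131700-85185064, minus strand) was at 16.3 and 17.3 FPKM in WT PBS and 12.6 and 14.5 in WT NMDA. The shPax6 values were 17.6 and 16.7 FPKM under PBS and 14.3 and 15.3 under NMDA, and the JNK3 KO values were 19.8 and 17.3 under PBS and 18.1 and 17.9 under NMDA. WT NMDA overlapped shPax6 NMDA, and these were the lowest groups. Cry2 (chr2:92403646-92434043, minus strand) was at 34.4 and 33.6 FPKM in WT PBS and 22.2 and 23.8 in WT NMDA. It was at 33.5 and 28.2 FPKM in shPax6 PBS, 22.4 and 25.6 in shPax6 NMDA, 34.6 and 34.5 in JNK3 KO PBS, and 30.9 and 29.4 in JNK3 KO NMDA. Here too WT NMDA and shPax6 NMDA overlapped at the bottom of the order.

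Nr1d1 and Nr1d2 encode the REV-ERB repressors of Arntl. Nr1d1 (chr11:98767932-98775333, minus strand) was at 75.8 and 70.7 FPKM in WT PBS and 58.3 and 58.7 in WT NMDA. It was at 69.4 and 61.1 FPKM in shPax6 PBS, 62.5 and 69.5 in shPax6 NMDA, 74.9 and 76.3 in JNK3 KO PBS, and 69.1 and 66.6 in JNK3 KO NMDA. WT NMDA was lowest, but its distance to the nearest library was small, and Nr1d1 varied least of the 10 genes, 1.31 times from lowest to highest. Nr1d2 (chr14:18204054-18239127, minus strand) was at 52.8 and 55.8 FPKM in WT PBS and 18.1 and 17.9 in WT NMDA. Its shPax6 values were 48.0 and 53.9 FPKM under PBS and 49.6 and 57.5 under NMDA. In JNK3 KO retinas it was at 43.9 and 46.4 FPKM under PBS and 63.4 and 61.4 under NMDA. JNK3 KO NMDA was above all other groups, WT NMDA below all, and JNK3 KO PBS second lowest and apart from its neighbours.

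Dbp, a basic leucine zipper factor and direct output of the loop (chr7:45705088-45710203, plus strand), had the highest mean of the 10 over the PBS libraries, 89.2 FPKM. It was at 90.4 and 92.3 FPKM in WT PBS and 144 and 156 in WT NMDA. It was at 75.8 and 76.9 FPKM in shPax6 PBS, 61.9 and 61.5 in shPax6 NMDA, 100.4 and 99.5 in JNK3 KO PBS, and 82.2 and 73.0 in JNK3 KO NMDA. WT NMDA was the highest group for Dbp alone among the 10 genes, while within shPax6 and JNK3 KO retinas the NMDA libraries lay below the PBS libraries.

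The strand used in counting is not given in the sources used here, so values of genes that share exon bases with a gene on the opposite strand are uncertain. Nr1d1 shares 263 exon bases with Thra, at a mean of 96.0 FPKM, and Dbp shares 539 with Sphk2, at 8.14 FPKM. Cry2 shares 295 exon bases with D930015M05Rik, at 0.084 FPKM, and Arntl shares 33 with Gm45355, which is listed at 0.

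All 10 clock genes passed the filter of a group mean above 1 FPKM and were tested among 16471 genes with limma on the log2(FPKM + 0.1) scale, so fold changes of low genes are understated. The threshold for a call was 0.05 on the p adjusted by Benjamini-Hochberg. NMDA against PBS in WT retinas called 10 of the 10, beside 59.8% of all genes tested. Dbp was higher, beside 26.0% of all genes, and 9 were lower, beside 33.8%. The median over the 10 was -0.57 and over all genes -0.09. Clock changed most, by -2.22 (SE 0.13; limma, Benjamini-Hochberg adjusted p = 9.03e-07), followed by Nr1d2 at -1.59 (SE 0.09; adjusted p = 6.24e-07). Per2 changed by -1.40, Per3 by -0.82, Arntl by -0.58, Cry2 by -0.56, Per1 by -0.49 and Nr1d1 by -0.32, of which Per1, Per3 and Cry2 were above 0 once the length trend was removed. Cry1 changed by -0.31 (SE 0.11), or 0.11 with the length trend removed, with a limma Benjamini-Hochberg adjusted p of 0.0296. Its call was lost when WT PBS 1, WT PBS 2 or WT NMDA 1 was left out, with an adjusted p of up to 0.159, under quantile normalization, at -0.17, and with the spread taken from the compared groups alone. Rescaling to TPM placed all 9 further from 0, among them Cry1 at -0.88, Nr1d1 at -0.90, Per1 at -1.06, Cry2 at -1.14 and Arntl at -1.15, while it moved the median of all genes by -0.56. Dbp rose by 0.71 (SE 0.07; limma, Benjamini-Hochberg adjusted p = 1.44e-05), but was at 0.14 after rescaling to TPM and 0.05 after quantile normalization, where it was not called.

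**Figure D2:**
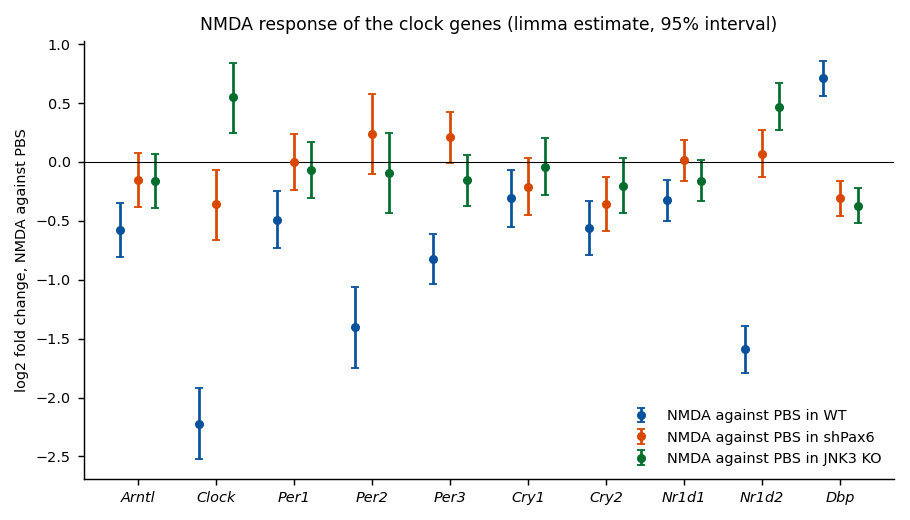
Log2 fold change of each clock gene, NMDA against PBS, in WT, shPax6 and JNK3 KO retinas, from values as deposited; points are limma estimates from 2 libraries a group and bars are 95% intervals. In WT, 9 genes lie below 0 and Dbp above, from -2.22 for Clock to 0.71 for Dbp.

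With the length trend removed, 5 of the 10 clock genes were called in WT, beside 45.9% of 16451 genes. Arntl at -0.40, Clock at -0.69 and Nr1d2 at -0.88 were lower, beside 22.1% of genes. Dbp at 0.22 and Per1 at 0.43 were higher, beside 23.8%, and Per1 changed sign between the scales with a call on both. Nr1d2 had the largest change on this scale (SE 0.09; limma, Benjamini-Hochberg adjusted p = 5.43e-05). Per2 at -0.19, Nr1d1 at -0.09, Cry1 at 0.11, Cry2 at 0.19 and Per3 at 0.21 were not called. Arntl, Clock and Nr1d2 were thus lower and Dbp higher with and without the correction. Which scale is nearer to the RNA content of the tissue was not tested, and NMDA treatment and a difference in RNA quality or library preparation cannot be told apart in this group.

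**Figure D3:**
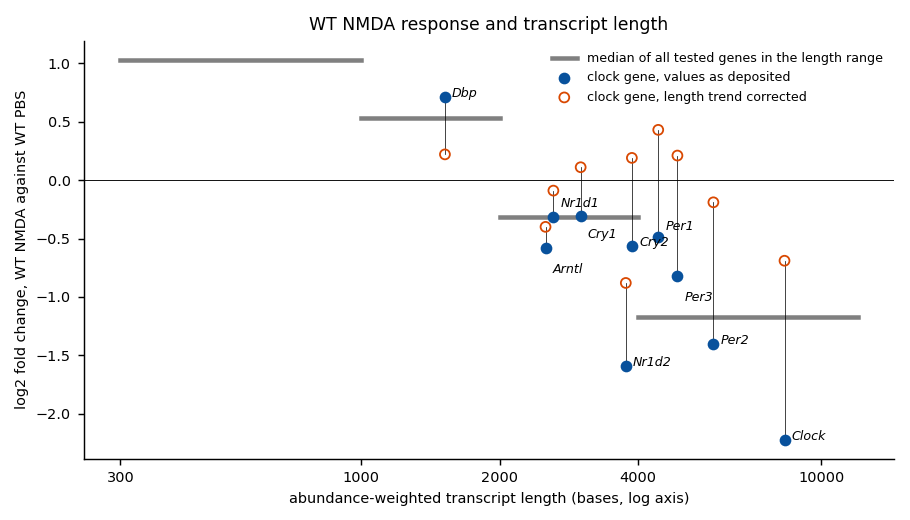
Log2 fold change in WT NMDA against WT PBS plotted against abundance-weighted transcript length in bases (log axis). Filled points are clock genes as deposited, open points the same genes with the length trend removed, and grey bars are medians of all tested genes in a length range; the outer ends of the first and last bars are drawn at fixed axis positions. The shortest, Dbp at 1522 bases, has the highest deposited value and the longest, Clock at 8326, the lowest, with no steady order between them.

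In shPax6 retinas NMDA called 2 of the 10 clock genes, beside 30.2% of all genes, and both were lower, beside 11.0%. Over all 16471 genes tested, 3151 were called higher and 1816 lower. Cry2 changed by -0.36 (SE 0.10; limma, Benjamini-Hochberg adjusted p = 0.025) and Dbp by -0.31 (SE 0.07; adjusted p = 0.00726). The other 8 lay between -0.36 for Clock, which was not called, and 0.24 for Per2, and the median over the 10 was -0.08 against 0.10 over all genes. The Cry2 call was lost without shPax6 PBS 1 or shPax6 NMDA 1, with a limma Benjamini-Hochberg adjusted p of up to 0.13, and Clock was called without shPax6 NMDA 1, at 0.0242, and under TPM and quantile normalization, at -0.41 and -0.51. Cry1, at -0.21 and not called, was called at -0.35 under quantile normalization, where Cry2 at -0.51 and Dbp at -0.45 were also called. With the spread taken from the compared groups alone, neither Cry2 nor Dbp was called. In the same libraries the 5 cone markers summed to 228 and 192 FPKM after NMDA and 1062 and 960.5 after PBS, with 5 of 5 lower. The leukocyte markers summed to 329 and 335 FPKM against 42.2 and 40.4, with 6 of 6 higher, and the ganglion cell markers to 44.1 and 36.4 against 145 and 142, with 6 of 7 lower. The amacrine markers summed to 81.3 and 80.2 FPKM against 188 and 177, with 5 of 5 lower, and the retinal pigment epithelium markers to 3.44 and 6.16 against 51.8 and 50.7, with 3 of 3 tested lower. Pou4f2 was listed at 0 in shPax6 NMDA 2. The part of these cells was not tested.

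In JNK3 KO retinas NMDA called 3 of the 10, beside 10.4% of all genes. Clock at 0.55 (SE 0.13) and Nr1d2 at 0.47 (SE 0.09) were higher, beside 4.33%, and Dbp at -0.37 (SE 0.07) was lower, beside 6.10%. Their limma Benjamini-Hochberg adjusted p-values were 0.0296, 0.011 and 0.00916. Clock and Nr1d2, the genes that fell most in WT, were thus the ones that rose here. This comparison had a length trend opposite to that in WT. Its median log2 fold change was -0.11 over genes with transcripts under 1000 bases and 0.16 over those above 4000 bases. Of these genes, 1.6% and 10.3% were called higher. The part of transcript length in the rise of Clock and Nr1d2 was not tested. The other 7 lay between -0.20 for Cry2 and -0.04 for Cry1, and the median over the 10 was -0.12 against -0.01 over all genes. Leaving out 1 library gave 0 to 3 calls. Clock lost its call without either WT PBS, JNK3 KO PBS or JNK3 KO NMDA library (limma, Benjamini-Hochberg adjusted p up to 0.185). Nr1d2 lost it without JNK3 KO PBS 1 or either JNK3 KO NMDA library (adjusted p up to 0.0887 by limma with Benjamini-Hochberg adjustment). Dbp lost it without either JNK3 KO PBS library or JNK3 KO NMDA 2 (limma, Benjamini-Hochberg adjusted p up to 0.067). With the length trend removed, Nr1d2 at 0.40 and Dbp at -0.26 were called and Clock at 0.27 was not, and with the spread taken from the compared groups alone neither Clock nor Dbp was. The ganglion cell markers summed to 113 and 115 FPKM after NMDA and 502 and 462 after PBS, with 4 of 7 lower, and the leukocyte markers to 75.1 and 76.1 against 218 and 226, with 1 of 6 higher and 4 lower. The cone markers summed to 306 and 302 FPKM against 539 and 503, with 5 of 5 lower. The Müller glia markers summed to 383 and 394 FPKM against 427 and 422, with 2 higher and 1 lower of 4. The microglia markers summed to 10.7 and 11.0 FPKM against 19.4 and 17.3, with 2 of 5 lower. Their part in the result was not tested.

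Under PBS, shPax6 retinas differed from WT in 3 of the 10 clock genes, beside 16.5% of all genes. Arntl at 0.37 (SE 0.10) was higher, beside 5.36%, and Per3 at -0.37 (SE 0.09) and Dbp at -0.26 (SE 0.07) were lower, beside 11.2%. The limma Benjamini-Hochberg adjusted p-values were 0.0367, 0.0282 and 0.0276. Per2, at -0.45 (SE 0.15), was not called (limma, Benjamini-Hochberg adjusted p = 0.0742) but was called without either shPax6 NMDA library, at down to 0.0337. Arntl lost its call without either WT PBS library, either JNK3 KO PBS library or shPax6 PBS 2, with a limma Benjamini-Hochberg adjusted p of up to 0.182. Dbp lost it without any 1 of the WT PBS and shPax6 PBS libraries (limma, Benjamini-Hochberg adjusted p up to 0.137), and Per3 without either WT PBS library or shPax6 PBS 1 (up to 0.133). With the length trend removed, Per3 at -0.26 and Dbp at -0.21 were not called, nor was Arntl at 0.34 under TPM. With the spread taken from the compared groups alone, none of these 3 was called. In these libraries the ganglion cell markers summed to 145 and 142 FPKM against 484 and 501 in WT PBS, with 4 of 7 lower, and the cone markers to 1062 and 960.5 against 487 and 514, with 5 of 5 higher. The leukocyte markers summed to 42.2 and 40.4 FPKM against 298 and 329, with 5 of 6 lower. The Müller glia markers summed to 570 and 554 FPKM against 357 and 358, with 2 higher and 1 lower of 4. The erythrocyte markers summed to 36.2 and 22.75 FPKM against 64.5 and 73.15, with 2 of 3 lower. Their part was not tested.

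JNK3 KO and WT retinas under PBS differed by limma in 0 of the 10 clock genes, beside 1.51% of all genes. At an unadjusted p under 0.05, 3 of the 10 and 15.1% of all genes differed: Arntl at 0.24, Clock at -0.38 and Nr1d2 at -0.27. Their limma Benjamini-Hochberg adjusted p-values were 0.292, 0.202 and 0.186. The difference of Clock had a 95% interval of -0.68 to -0.09. These values are as deposited, and this comparison also had a length trend. Its median log2 fold change was 0.17 over genes with transcripts under 1000 bases and -0.18 over those above 4000 bases. With the length trend removed, 10.3% of 16451 genes had an unadjusted limma p under 0.05.

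Whether the NMDA response itself differed between genotypes was tested as a difference of differences; these comparisons share libraries. The WT response minus the shPax6 response called 8 of the 10, beside 49.7% of all genes, with a median of -0.46 against -0.28. Dbp was higher by 1.02 (SE 0.09), beside 18.3%, and 7 were lower, beside 31.4%: Clock at -1.86, Nr1d2 at -1.66, Per2 at -1.65, Per3 at -1.03, Per1 at -0.49, Arntl at -0.43 and Nr1d1 at -0.34. Cry1 at -0.10 and Cry2 at -0.20 were not called, but were after rescaling to TPM, at -0.62 and -0.73. TPM also gave Per1 at -1.01, Arntl at -0.95, Nr1d1 at -0.86 and Dbp at 0.49, each called. Under quantile normalization Arntl at -0.34 and Per1 at -0.26 were not called, and Cry1 was at 0.18, while Nr1d1 at -0.60 and Dbp at 0.50 were called. With the spread taken from the compared groups alone, Arntl and Nr1d1 were not called. Arntl lost its call in 7 of the 12 fits without 1 library, those without either WT PBS or JNK3 KO PBS library, WT NMDA 2, shPax6 PBS 1 or shPax6 NMDA 2 (limma, Benjamini-Hochberg adjusted p up to 0.103). Nr1d1 lost it without WT PBS 1, either WT NMDA library, shPax6 PBS 2 or shPax6 NMDA 2 (limma, Benjamini-Hochberg adjusted p up to 0.101). Per1 lost it without either WT PBS library, WT NMDA 1 or shPax6 PBS 2 (limma, Benjamini-Hochberg adjusted p up to 0.0644). With the length trend removed, 4 of 10 were called, beside 36.2% of genes: Nr1d2 at -0.89 lower, beside 16.8%, and Dbp at 0.74, Cry2 at 0.59 and Per1 at 0.44 higher, beside 19.4%. The signs of Cry2 and Per1 were opposite to those as deposited, as were those of Cry1 at 0.42 and Nr1d1 at 0.02, which were not called. Per2 at -0.49, Clock at -0.47, Arntl at -0.11 and Per3 at -0.02 were not called on this scale.

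The WT response minus the JNK3 KO response called 7 of the 10, beside 51.4% of all genes, with a median of -0.42 against -0.03. Dbp was higher by 1.08 (SE 0.09), beside 23.5%, and 6 were lower, beside 27.9%: Clock at -2.77, Nr1d2 at -2.05, Per2 at -1.31, Per3 at -0.67, Per1 at -0.42 and Arntl at -0.42. Cry1 at -0.27, Nr1d1 at -0.17 and Cry2 at -0.36 were not called, and Cry2 was called without any 1 of the 4 shPax6 libraries (limma, Benjamini-Hochberg adjusted p down to 0.029). Rescaled to TPM, these 3 were called lower, Cry1 at -0.86, Nr1d1 at -0.76 and Cry2 at -0.96, and Per1 was at -1.02 and Arntl at -1.01. Under quantile normalization Nr1d1 at -0.61 and Cry2 at -0.45 were called, and Per1 at -0.32 was not. Arntl lost its call in 6 of 12 fits, those without either WT PBS or JNK3 KO PBS library, WT NMDA 2 or JNK3 KO NMDA 1, and Per1 in 7, those without any 1 of the 4 WT libraries, either JNK3 KO PBS library or JNK3 KO NMDA 1 (limma, Benjamini-Hochberg adjusted p up to 0.119 and 0.13). With the length trend removed, 6 of 10 were called, beside 34.2% of genes. Nr1d2 at -1.28 and Clock at -0.96 were lower, beside 15.8%, and Per1 at 0.60, Dbp at 0.49, Per3 at 0.49 and Cry2 at 0.46 were higher, beside 18.4%. Per1, Per3 and Cry2 thus had the opposite sign, as did Per2 at 0.08, Cry1 at 0.17 and Nr1d1 at 0.07, which were not called, and Arntl at -0.25 was not called. Nr1d2, lower, and Dbp, higher, were called in both differences from WT and on both scales. For Dbp in WT minus JNK3 KO the value was 0.48 under TPM and 0.32 under quantile normalization, called in each.

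The shPax6 response minus the JNK3 KO response called 1 of the 10, beside 17.7% of all genes. Clock was lower, at -0.91 (SE 0.18; limma, Benjamini-Hochberg adjusted p = 0.0103), beside 5.62% of genes lower, and at -0.49 and not called with the length trend removed. Nr1d2, at -0.40, was not called (limma, Benjamini-Hochberg adjusted p = 0.0565) but was called without shPax6 PBS 1 or shPax6 NMDA 2, at down to 0.0174, and under TPM at -0.47 and quantile normalization at -0.60.

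A ratio taken within a library does not depend on how that library was scaled, and Dbp and Arntl normally peak at opposite times of day. The log2 ratio of Dbp to Arntl was 1.42 and 1.52 in WT PBS and 2.63 and 2.90 in WT NMDA. It was 0.92 and 0.77 in shPax6 PBS, 0.79 and 0.60 in shPax6 NMDA, 1.38 and 1.33 in JNK3 KO PBS, and 1.14 and 1.15 in JNK3 KO NMDA. WT NMDA was highest and the shPax6 groups, which overlapped each other, lowest, set against a pooled SD of 0.11 between libraries of a group. The rise with NMDA in WT was 1.29 as deposited, 0.62 with the length trend removed and 1.15 as a share of fragments, a scale chosen after seeing the data. For Nr1d1 to Arntl, of similar length, the log2 ratio was 1.17 and 1.14 in WT PBS and 1.32 and 1.49 in WT NMDA. It was 0.79 and 0.44 in shPax6 PBS, 0.80 and 0.77 in shPax6 NMDA, 0.96 and 0.95 in JNK3 KO PBS, and 0.89 and 1.02 in JNK3 KO NMDA. All 4 shPax6 libraries lay below all 8 others, and the pooled SD was 0.12. With the length trend removed, the WT means of this ratio were 1.14 under PBS and 1.45 under NMDA. These ratios were not tested.

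**Figure D4:**
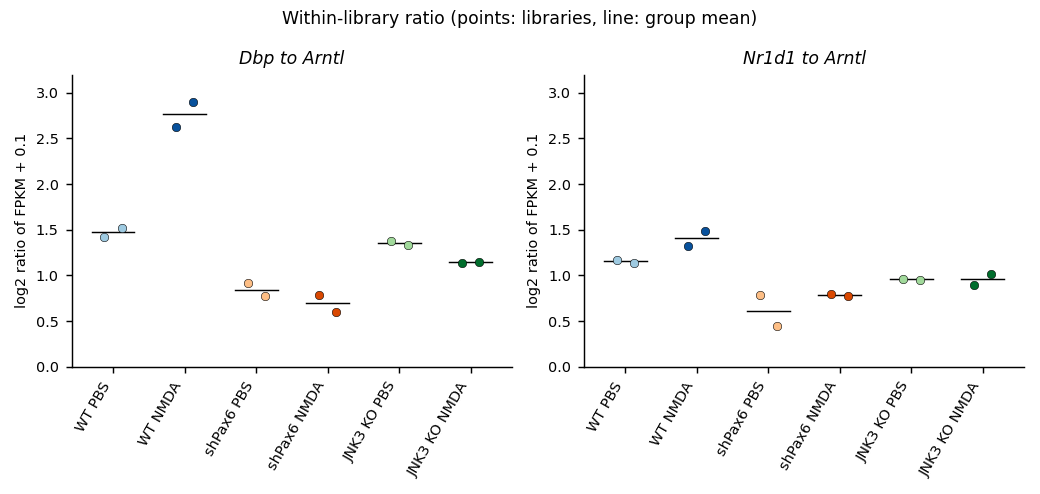
Log2 ratio of Dbp to Arntl (left) and of Nr1d1 to Arntl (right), each from FPKM + 0.1, in the 12 libraries; points are libraries and lines are means of 2. WT NMDA is highest in both panels and the shPax6 groups are lowest.

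The transcript table held 44 annotated transcripts of the 10 genes, of which 29 passed the filter. In WT, NMDA called 19 of the 29, beside 35.2% of 49940 transcripts, with 2 higher, beside 11.7%, and 17 lower, beside 23.5%. By limma, 0 of the 29 were called with NMDA in shPax6 retinas, beside 8.34%, and 5 had an unadjusted p under 0.05. In JNK3 KO retinas limma called 0 as well, beside 1.31%, with 3 at an unadjusted p under 0.05. The transcripts called higher in WT were Arntl-203 and Per1-203. Per1-201 was at 17.2 and 16.8 FPKM in WT PBS and listed at 0 and at 5.51 in WT NMDA, while Per1-203 was listed at 0 in both WT PBS libraries and at 13.3 and 9.43 in WT NMDA. Per1-203 starts at chr11:69100522, downstream of the Per1-201 start at chr11:69098948, and in the 8 other libraries it was at 0.82 FPKM or less. Arntl-206 was at 20.4 and 19.3 FPKM in WT PBS and 7.39 and 5.34 in WT NMDA, and Arntl-203 at 0.63 and 0.37 in WT PBS and 11.05 and 8.67 in WT NMDA. Clock-205, of 9744 bases, was at 10.8 and 11.0 FPKM in WT PBS and 3.49 and 3.84 in WT NMDA, and Clock-201, of 7478 bases, at 4.45 and 3.99 in WT PBS and listed at 0 in both WT NMDA libraries. Dbp-203 was at 9.74 and 14.8 FPKM in WT PBS and listed at 0 in both WT NMDA libraries, and it was the only Dbp transcript of 5 called in WT, in the direction opposite to the gene (limma, Benjamini-Hochberg adjusted p = 0.000379). In FPKM, the widest gap between WT groups was in Dbp-204, at 2.43 and 4.64 FPKM in WT PBS and 42.5 and 67.0 in WT NMDA, which was not called (limma, Benjamini-Hochberg adjusted p = 0.205). The main transcript, Dbp-201, was at 63.2 and 46.7 FPKM in WT PBS and 71.25 and 58.9 in WT NMDA. Dbp-204 varied widely elsewhere, at 18.5 and 33.1 FPKM in JNK3 KO PBS, and at 18.0 in 1 shPax6 NMDA library and listed at 0 in the other. Transcripts of a gene share exons, so these values are estimates of how shared fragments divide, and a shift between them was not tested apart from the gene.

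**Figure D5:**
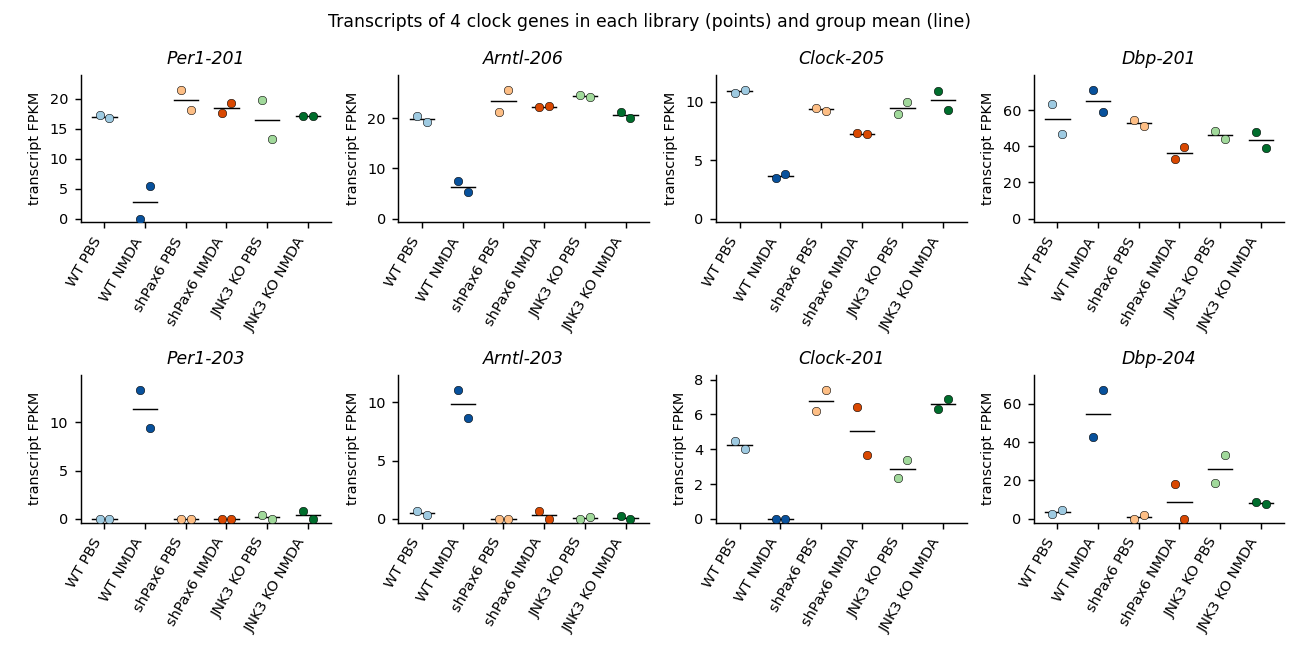
FPKM of 8 transcripts of Per1, Arntl, Clock and Dbp in the 12 libraries; points are libraries, lines are means of 2, and each column of panels is 1 gene. Per1-203 and Arntl-203 stand above the other groups in WT NMDA, where Per1-201, Arntl-206, Clock-205 and Clock-201 are lowest.

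Across the 12 libraries, the 36 pairs of clock genes without Dbp had a median Pearson r of 0.75 on the log2 scale, and the 9 pairs with Dbp of -0.68. Without the WT NMDA group these medians were -0.07 and 0.53 over 10 libraries. The points share groups and a length trend, and no p is given. The genes most like Arntl over the 12 libraries were Jag1 (r = 0.963), Map10 and Dcaf8 (both 0.958). Those most like Dbp were Bex2 (r = 0.986), Phf1 and Pcdhgc4 (both 0.980), and those most like Per1 were Tti1 (r = 0.961), Gm37309 and Myrip (both 0.959).

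Of 11 further loop components, 8 were called with NMDA in WT, 2 higher and 6 lower, beside 59.8% of all genes called, 26.0% higher and 33.8% lower, with a median of -0.87 against -0.09 over all genes. Rora and Rorb, receptors that activate Arntl, were lower: Rora by -1.82, from 29.3 and 25.2 FPKM to 8.09 and 7.16, and Rorb by -0.90. Hlf at -1.72 and Tef at -0.72, relatives of Dbp, were lower where Dbp was higher. Nfil3, which competes with them for D-boxes, rose by 1.15, from 7.18 and 7.80 FPKM to 15.7 and 18.0, and Ciart, a repressor of the activating pair, by 0.61. The repressors Bhlhe40 at -0.87 and Bhlhe41 at -1.22 were lower. Npas2 at -0.53, a paralog of Clock, and Arntl2 at -1.14 were not called. In shPax6 retinas 2 were called, beside 30.2% of all genes, both lower, Hlf at -1.08 and Rora at -0.37. JNK3 KO retinas had 1 call, beside 10.4% of all genes, Rora at 0.59, which rose with Clock and Nr1d2. Under PBS, shPax6 retinas had Rora higher, at 0.36, and Bhlhe40 lower, at -0.55, against WT, beside 16.5% of all genes called. JNK3 KO retinas had 0 of 11 called by limma, beside 1.51%, with 4 at an unadjusted p under 0.05, beside 15.1% of all genes.

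The counts of the lists that follow stand beside the same shares of all genes called with NMDA, 59.8% in WT, 30.2% in shPax6 and 10.4% in JNK3 KO retinas. In WT, 26.0% of all genes were higher and 33.8% lower. In shPax6, 3151 of the 16471 genes tested were higher and 1816 lower, and in JNK3 KO 4.33% were higher and 6.10% lower. Of 9 genes for PER and CRY turnover, 0 were called higher and 6 lower with NMDA in WT, with a median of -0.77, against 0 called by limma in shPax6, with 2 at an unadjusted p under 0.05 beside 40.9% of all genes, and 1 higher in JNK3 KO retinas. Csnk2a1, a subunit of casein kinase 2, was at -0.79 in WT and 0.42 in JNK3 KO. Of 7 tested genes for light and cAMP input, 2 were lower in WT (median -0.68), 2 higher in shPax6 and 1 higher in JNK3 KO. Creb1, which carries cAMP signals to Per1, was at -1.37 in WT and 0.77 in JNK3 KO. Opn4, the melanopsin of intrinsically photosensitive ganglion cells, was not called with NMDA in any genotype and was at -2.94 in shPax6 PBS against WT PBS, where it was called. Opn5 and Adcyap1 were listed at 0 in at least 1 library.

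Of 9 genes for dopamine and melatonin, 5 passed the filter, all for dopamine and its signalling; the melatonin genes Aanat, Mtnr1a and Mtnr1b did not. Of these 5, beside 59.8% of all genes called in WT, 30.2% in shPax6 and 10.4% in JNK3 KO, 1 was higher and 2 lower in WT (median -1.06), 1 higher and 3 lower in shPax6, and 1 higher in JNK3 KO. Drd4, the dopamine receptor of photoreceptors and a rhythmic gene, was at 54.5 and 53.1 FPKM in WT PBS and 159 and 153 in WT NMDA, a rise of 1.54. It rose by 0.35 in shPax6 and was at 0.10 in JNK3 KO, where it was not called. Adcy1, an adenylyl cyclase downstream of Drd4, was at -1.71 in WT, -0.51 in shPax6 and 0.26 in JNK3 KO, and was called in all 3. Drd1 was lower in WT at -1.06 and in shPax6 at -1.19. Th, the rate-limiting enzyme of dopamine synthesis in amacrine cells, was called in shPax6 at -3.19 and not in WT at -2.11 or JNK3 KO at -2.02. Its levels were at most 3.50 FPKM, and it was listed at 0 in shPax6 NMDA 1, so the value of -3.19 depends on the pseudocount of 0.1.

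Beside the same shares, 59.8%, 30.2% and 10.4% of all genes, the 6 clock outputs had 2 higher and 2 lower in WT (median -0.60), 1 higher in shPax6 and 0 by limma in JNK3 KO retinas, with 0 at an unadjusted p under 0.05 beside 24.2% of all genes. Tspan4 was at 1.36 in WT and 0.58 in shPax6. Of 5 glucocorticoid targets, 0 were higher and 4 lower in WT (median -0.82), 1 was higher in shPax6, and limma called 0 in JNK3 KO, with 1 at an unadjusted p under 0.05 beside 24.2% of all genes. Zbtb16 was at -2.96 in WT and 1.41 in shPax6, from levels of at most 1.96 FPKM. The values of all these lists are as deposited, and the length trends of WT NMDA and of NMDA in JNK3 KO were not removed from them.

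Other marker lists, led by Pde6h, Calb1, Glul, Csf1r, Cldn5, Ttr, Cryaa and Eif2s3y, had these calls with NMDA in WT. Cone markers were 1 higher and 2 lower of 5. Horizontal cell markers were 4 lower of 4, Müller glia markers 1 higher and 3 lower of 4, and microglia markers 1 higher and 3 lower of 5. Endothelial markers were 1 higher of 3, retinal pigment epithelium markers 1 higher and 2 lower of 3 tested, lens markers 2 higher of 4 tested, and sex-linked markers 3 lower of 5. The Müller glia marker Glul was at between 164 and 397 FPKM over all libraries. Retinal pigment epithelium markers summed to 3.44 and 6.16 FPKM in shPax6 NMDA and to between 34.4 and 68.3 in the other libraries. The part of these cells in the clock gene values was not tested.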

How the data were processed

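RNA-seq of 12 retina libraries (2 in each of 6 groups) was used. The authors aligned reads with STAR 2.7.1a to GRCm38.p6, estimated abundance with RSEM 1.3.3 and deposited FPKM for genes and for transcripts, rounded to 2 decimals; the submitters' notes also name edgeR 3.36.0 and R 4.1.0. Depth is unknown, so precision rests on the replicates. Columns not mapped to a sample numbered 0. Transcript lengths and positions came from GENCODE M21, which matched 99.53% of genes.

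From these values, log2(FPKM + 0.1) of 16471 genes with a group mean above 1 FPKM was fitted as 6 group means (6 residual degrees of freedom) in limma 3.58.1 under R 4.3.3, its variance prior following intensity, with Benjamini-Hochberg adjustment over all genes and calls at 0.05. Transcripts were fitted likewise. Other steps used Python 3.11.15, pandas 2.3.3, numpy 2.4.6, scipy 1.17.1 and matplotlib 3.10.9. The length correction subtracted each library's lowess trend (span 0.3) on transcript length. The fit was tested on simulated data.

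Named genes were the 10 clock genes, loop components, genes of the other clock lists called in at least 2 of the 3 NMDA comparisons, Th and Opn4 as references, and the 3 genes most like Arntl, Dbp and Per1. Xist, Eif2s3y and the cell markers named were read as library checks. The clock genes and lists were chosen with earlier results of these data known. Alternatives covered pseudocounts, filters, scalings, the length correction, the replicate number as a block, other call rules and leaving out each library.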

Additional observations from a re-analysis of the deposited data

Results flagged for a closer look

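A test of the difference between genotypes in the response to NMDA (limma, values as deposited) singled out 16 results, given as log2 differences. For the WT response minus the shPax6 response these were Clock at -1.86, Nr1d2 at -1.66, Per2 at -1.65, Per3 at -1.03, Per1 at -0.49, Arntl at -0.43, Nr1d1 at -0.34 and Dbp at 1.02. For the WT response minus the JNK3 KO response they were Clock at -2.77, Nr1d2 at -2.05, Per2 at -1.31, Per3 at -0.67, Per1 at -0.42, Arntl at -0.42 and Dbp at 1.08. For the shPax6 response minus the JNK3 KO response it was Clock at -0.91. The first 15 rest on the WT NMDA libraries, whose values follow transcript length, and the differences share libraries with each other. With the length trend removed, Per1 in both differences from WT and Per3 in WT minus JNK3 KO were called with the opposite sign. Nr1d1 in WT minus shPax6 and Per2 in WT minus JNK3 KO turned sign and were not called. Arntl in both, Clock, Per2 and Per3 in WT minus shPax6, and Clock in shPax6 minus JNK3 KO lost their calls. Nr1d2 and Dbp in both, and Clock in WT minus JNK3 KO, kept sign and call. The 9 that use shPax6 also rest on the shPax6 NMDA libraries, where Xist was at 138 and 126 FPKM, so sex and the response cannot be told apart in them. The part of collection hour in them was not tested.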

How the results depend on the processing

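Fold changes of the 10 clock genes in 8 comparisons (80 in all) kept direction and side of the threshold in 80 under a pseudocount of 1 or 0.5, 76 without a filter, 64 under TPM, 67 under 75th percentile scaling, 61 under quantile normalization, 49 under the length correction, 69 with the spread from the compared groups alone, 73 without an intensity trend and 55 for the most abundant transcript. Chosen after seeing the data were the share of fragments (70) and the fit without the WT NMDA group (50 of 50 changes that do not use it).

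Of changes called on either scale, the length correction turned the sign of Per1 to 0.43 in WT, 0.44 in WT minus shPax6 and 0.60 in WT minus JNK3 KO, of Per2 to 0.08 in WT minus JNK3 KO, of Per3 to 0.21 in WT and 0.49 in WT minus JNK3 KO, of Cry1 to 0.11 in WT, of Cry2 to 0.19 in WT, 0.59 in WT minus shPax6 and 0.46 in WT minus JNK3 KO, and of Nr1d1 to 0.02 in WT minus shPax6. The most abundant transcript turned Per3 in shPax6 PBS against WT PBS to 0.06. Sign changes called on neither scale numbered 8 and 10. The cause was not tested.

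Adding an absolute log2 fold change above 1, with adjusted p or with the study's unadjusted p, left 3 calls in WT, 0 in shPax6, 0 in JNK3 KO, 0 in shPax6 PBS against WT PBS, 5 in WT minus shPax6, 4 in WT minus JNK3 KO and 0 in shPax6 minus JNK3 KO (limma). The length correction left 5 in WT, 1 in shPax6 PBS against WT PBS and 4 in WT minus shPax6. In shPax6, 75th percentile scaling and quantile normalization gave 4 calls and the compared groups alone 0. The compared groups alone gave 1 in JNK3 KO and 0 in shPax6 PBS against WT PBS, where the share of fragments gave 5. In shPax6 minus JNK3 KO, TPM, 75th percentile scaling, quantile normalization and the share of fragments gave 2. Transcript fits in shPax6, chosen after seeing the data, called 1 under pseudocounts of 1 and 0.5, TPM, 75th percentile scaling and quantile normalization. The WT rise in Dbp to Arntl was 0.62 with the length correction and 1.15 as a share of fragments. The cause was not tested.

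With the replicate block, shPax6 minus JNK3 KO gave 2 calls, Nr1d2 at -0.40 being added, and Arntl in shPax6 PBS against WT PBS, at 0.37, lost its call. Same-numbered libraries deviated together with correlations of -0.10 to 0.09 over 15 pairs of groups, so they share only a number.

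Leaving out each library in turn, with the lone library assumed to vary like the other groups, gave 9 to 10 calls in WT, 1 to 2 in shPax6, 0 to 3 in JNK3 KO, 0 to 4 in shPax6 PBS against WT PBS, 0 to 0 in JNK3 KO PBS against WT PBS, 5 to 8 in WT minus shPax6, 5 to 8 in WT minus JNK3 KO and 1 to 2 in shPax6 minus JNK3 KO. Transcript calls were 15 to 20 in WT, 0 to 3 in shPax6 and 0 to 0 in JNK3 KO. The change in Dbp to Arntl was 1.15 to 1.42 in WT. That in Nr1d1 to Arntl was -0.01 to 0.34 with NMDA in shPax6 and -0.71 to -0.36 for shPax6 PBS against WT PBS.

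TPM moved the median of all genes by -0.56 in WT, -0.52 in WT minus shPax6 and -0.58 in WT minus JNK3 KO, and higher calls went from 43.5% to 21.4%, 36.8% to 16.3% and 45.7% to 23.2%. In shPax6, quantile normalization moved it by -0.14 and the length correction by -0.12, and higher calls went from 63.4% to 44.0% and 47.5%, or 48.6% with 75th percentile scaling. In WT minus shPax6 the shifts were 0.27 and 0.31, the latter with 53.5% higher. In shPax6 minus JNK3 KO they were -0.12 (75th percentile), -0.20 (quantile) and -0.14 (length), with higher calls from 68.2% to 51.5%, 43.2% and 55.5%. In shPax6 PBS against WT PBS, 32.4% higher went to 42.5% (quantile) and 46.6% (length). In JNK3 KO PBS against WT PBS, 73.1% went to 56.6% (TPM), 53.1%, 32.1% (quantile) and 49.3% (share of fragments). Depth behind each value is unknown.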
